A study of Mus musculus with 3 samples.

Results

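Naive-type CD8 T cells of the mouse suprarenal aorta were described from single-cell RNA sequencing, in which each transcript is counted as a unique molecular identifier (UMI). The cells were chosen by their own transcripts. A barcode had to detect 200 or more genes with at most 10% of its UMIs from mitochondrial genes. It also needed 2 or more UMIs of Cd3d, Cd3e and Cd3g together, 1 or more of Cd8a and Cd8b1, and 1 or more of Lef1, Dapl1 and Tcf7. Any UMI of Gzmk, Nkg7, Cxcr6, Klra1, Klra6, Klra7 or the B cell gene Cd79a removed it. This kept 84 of 5465 barcodes, with 62 in the aneurysm library, 17 in the room air library and 5 in the control library. Because these 15 genes set the membership, their levels are given only as a description, and every other gene was read in the same cells that the rule chose.

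There were 3 libraries, 1 for each group, and each was made from pooled mice. The aneurysm library came from 4 Apoe-/- mice on a Western diet that breathed cigarette smoke for 16 weeks and had developed measurable aneurysms. The room air library came from 5 Apoe-/- mice on the same diet in room air, and the control library from 5 chow-fed C57BL/6 mice. Apoe-/- mice lack apolipoprotein E, a plasma carrier of lipids, and develop atherosclerosis on a fat-rich diet. Smoke exposure, the presence of an aneurysm and the library differ together between aneurysm and room air. Genotype, diet and library differ together between room air and control, so these causes cannot be told apart. Smoke-exposed mice without an aneurysm were not analysed here. Cells were sorted as CD45+CD31- leukocytes together with CD45-CD31+ endothelial cells, so a share of all barcodes depends on the sort, and shares below are also given among T cells. The stated purpose of the experiment was macrophage heterogeneity in aortic lesions, so T cells came with the sort.

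Naive CD8 T cells have left the thymus but have not met their antigen. They recirculate between blood and lymph nodes with the help of homing molecules such as the chemokine receptor Ccr7, and their quiet state is held by transcription factors such as Tcf7, Lef1 and Klf2 and by interleukin 7 signals. After activation they lose these transcripts and gain granzymes, perforin and the chemokine Ccl5. In the vessel wall, naive cells can lie in the adventitia, in lymphoid aggregates or in blood that stayed in the sample, and these sources were not told apart in the labels.

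The aneurysm library listed 2842 barcodes with 16698309 UMIs, the room air library 1851 barcodes with 9998517 UMIs and the control library 782 barcodes with 2568192 UMIs. The labels state 2685 analysed cells in aneurysm, 1736 in room air and 738 in control, while 2839 aneurysm, 1848 room air and 778 control barcodes passed the limits on genes and mitochondrial UMIs. Stated viability was 94% in aneurysm, 91% in room air and 73% in control. Kept barcodes had a median of 4481 UMIs in aneurysm, 3898.5 in room air and 2704 in control. Levels are in CPM, the UMIs of a gene summed over the cells of a set and scaled to the same total in each library. Apoe, the deleted gene, had 17.9 CPM in aneurysm macrophages and 24.0 CPM in room air macrophages, against 16661 CPM in control macrophages. In the naive-type CD8 T cells, Apoe had 4 UMIs in the 62 aneurysm cells and 5 UMIs in the 17 room air cells, against 9 UMIs in the 5 control cells. No 2 libraries shared a naive-type CD8 T cell barcode, although 5 barcode sequences were listed in both aneurysm and room air and 4 in both room air and control. With 1 library per group there was no replicate and no test between groups. Intervals are 95% intervals that cover counting error only, exact binomial for shares and exact Poisson for levels, and for ratios the exact conditional binomial.

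Of the 84 cells, 22 also carried many transcripts of macrophages and antigen-presenting cells, which a naive T cell lacks. These mixed barcodes had 1.5% or more of their UMIs from C1qa, C1qb, C1qc, Lyz2, Cd74 and H2-Aa, a limit chosen after the data were seen. They were 17 of the 62 aneurysm cells, 5 of the 17 room air cells and 0 of the 5 control cells. Their median share of myeloid UMIs was 5.23% in aneurysm and 7.18% in room air, against 0.325% in the other aneurysm cells and 0.796% in the other room air cells. The limit fell in a gap, since the highest unmixed aneurysm cell had 1.27% and the lowest mixed one 2.03%, and in room air these values were 1.08% and 2.13%. Mixed barcodes were also deep, with a median of 9665 UMIs in aneurysm and 7276 in room air, against 2523 in unmixed aneurysm cells and 2561.5 in unmixed room air cells. They held 56.5% of the aneurysm cells' UMIs and 57.4% of the room air cells' UMIs. Among all CD3 cells without Cd79a the mixed share was 23.9% in aneurysm, 28.9% in room air and 13.1% in control. A doublet caller, Scrublet, marked 3 of the 22 mixed barcodes and none of the 62 unmixed cells at the expected rate, and its automatic threshold marked 0 aneurysm, 2 room air and 1 control barcodes, so it was not relied on. Levels below are therefore from the 45 aneurysm, 12 room air and 5 control cells that were not mixed, with the values of all 84 cells beside them where these differ.

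**Figure D1:**
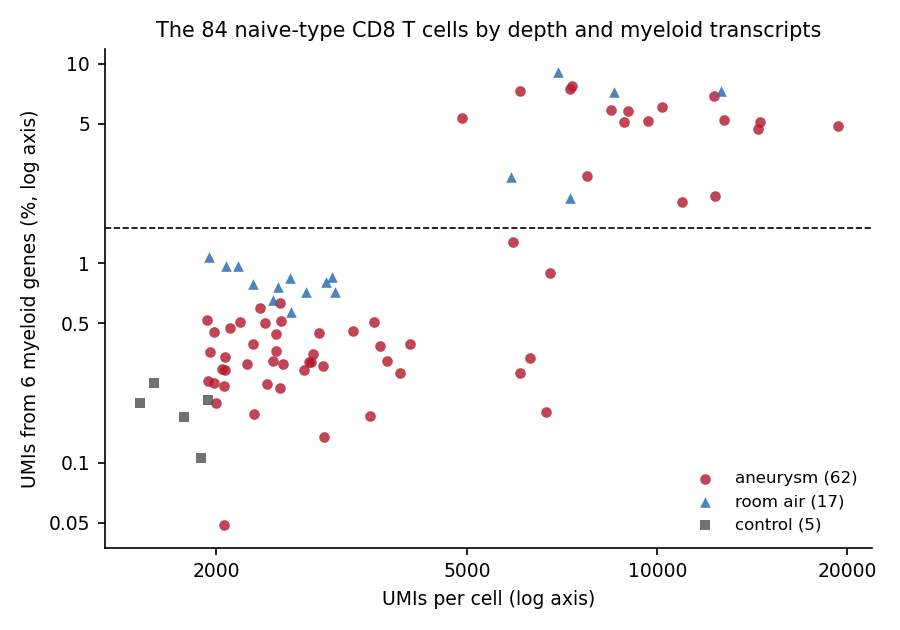
Each point is 1 of the 84 naive-type CD8 T cells, with its UMIs on the horizontal log axis and its percentage of UMIs from 6 myeloid genes on the vertical log axis, for aneurysm (red circles), room air (blue triangles) and control (grey squares). The dashed line is the limit of 1.5%, above which lie 17 aneurysm cells and 5 room air cells with 4903 UMIs or more.

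A pair of unmixed aneurysm barcodes also stood apart. The first held 71 of the 82 Plac8 UMIs and 57 of the 81 Ly6c2 UMIs of all 45 cells, together with Cd74, Ly6a, Ifitm3, Fcer1g and Irf8 transcripts. It had 6758 UMIs, but only 3 UMIs of Cd3d, 2 of Cd8b1, 1 of Cd8a and 3 of Lef1, and none of Cd3e, Cd3g or Dapl1. Tcf4 had 5 UMIs, Bst2 6 and Siglech, which is on the list of dendritic cell markers, 2. Its label as a T cell is therefore in doubt, but it met the rule and stays among the 45 cells unless stated. The other held all 74 UMIs of Cytl1 and 50 of the 51 UMIs of Clu, and Cytl1 is on the list of endothelial and wall markers. Several values that rest on either barcode are also given without it.

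The rule's edges were close to many other cells. Exactly 1 CD8 UMI was the whole CD8 evidence in 40 of the 84 cells, and 234 cells met every condition except that they had no CD8 UMI. Exactly 1 UMI of the naive genes was found in 21 cells, while 26 cells met the other conditions with none. Exactly 2 CD3 UMIs were found in 4 cells, and 7 cells missed the rule with 1 CD3 UMI. The Nkg7 condition removed by far the most, since 230 cells met every condition but this, 158 in aneurysm, 50 in room air and 22 in control. Without it the set held 314 cells, of which 84 (26.8%) had no Nkg7 UMI. Of the 230 cells with Nkg7, a granule membrane gene of cytotoxic lymphocytes, 57 had exactly 1 UMI, 44 had 2 UMIs and 129 had 3 or more.

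Nkg7 UMIs were also present in cells that should lack the gene. B cells, defined by 2 or more UMIs of Cd79a and Cd79b and no CD3 UMI, carried Nkg7 in 12.4% of cells in aneurysm, 34.4% in room air and 4.17% in control. Their Nkg7 level was 43.4 in aneurysm, 121 in room air and 45.4 CPM in control. Unmixed cells removed only by Nkg7 had 1093 in aneurysm, 1479 in room air and 1225 CPM in control. These cells were chosen for an Nkg7 UMI, so a level above that of B cells follows from the choice and is a description. Their Nkg7 level lay below that of CD8 T cells with a Gzmk UMI, which had 5375 in aneurysm, 4426 in room air and 2818 CPM in control. The median depth of the unmixed naive-type cells was 2523 in aneurysm, 2561.5 in room air and 1776 UMIs in control, and that of the B cells 2650 in aneurysm, 2663 in room air and 1394 UMIs in control. The cells removed only by Nkg7 are shown beside the naive-type cells below. Together they form a wider unmixed set of 183 aneurysm, 57 room air and 26 control cells, which was chosen after its values were seen.

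The label naive CD8 was met by most but not by all of the 62 unmixed cells. Cd8b1, the beta chain of the CD8 coreceptor and the more specific sign of a conventional CD8 T cell, was detected in 42 of 45 aneurysm, 9 of 12 room air and 5 of 5 control cells. Cd8a, the alpha chain, was detected in 24 of 45 aneurysm, 7 of 12 room air and 1 of 5 control cells. Both chains were found together in 26 of the 62 cells (41.9%), against 153 of 204 (75.0%) of the unmixed cells with Nkg7. Cd4 was the main contrary sign. Its UMIs were found in 9 of 45 aneurysm, 3 of 12 room air and 0 of 5 control cells, and in 17 of 62 aneurysm, 4 of 17 room air and 0 of 5 control cells when mixed barcodes were kept. Cd4 was found in 11 of the 25 unmixed cells with exactly 1 CD8 UMI (44.0%) but in 1 of the 37 with 2 or more (2.70%). That 1 cell was the barcode rich in Plac8 and Ly6c2, without which the count was 0 of 36. In B cells Cd4 was found in 18 of 894 (2.01%), and in the unmixed cells with Nkg7 in 11 of 204 (5.39%). The 36 unmixed cells with 2 or more CD8 UMIs and no Cd4 UMI were 29 in aneurysm, 5 in room air and 2 in control.

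The 9 aneurysm cells with a Cd4 UMI were set beside the other 36, and 1 of the 9 was the barcode rich in Plac8 and Ly6c2. Cd8b1, which the rule used and which is given as a description, had 255 CPM (interval 116 to 483) in cells with Cd4, against 1111 CPM (914 to 1338) in cells without it. Izumo1r, the folate receptor of CD4 T cells, had 283 CPM (136 to 520) with Cd4, against 120 CPM (62.0 to 210) without, and these intervals overlapped. Il7r had 1 UMI with Cd4, at 28.3 CPM (0.716 to 158), against 32 UMIs and 320 CPM (219 to 452) without. With the Plac8 and Ly6c2 barcode left out, the 8 remaining cells with Cd4 had 245 CPM of Cd8b1, 350 CPM (168 to 643) of Izumo1r and no Il7r UMI. Foxp3, the factor of regulatory T cells, had no UMI in any of the 62 cells. Of the list of 8 CD4 T cell markers, 6 were detected in aneurysm, 3 in room air and 1 in control. They summed to 436 in aneurysm, 294 in room air and 115 CPM in control. In unmixed naive-type CD4 T cells, which had a Cd4 UMI and no CD8 UMI, the same list summed to 1028 in aneurysm, 1070 in room air and 801 CPM in control. Cd4 is on this list and chose these cells, so part of the difference follows from the choice. For the cells with 1 CD8 UMI, a naive CD4 T cell cannot be told apart from a naive CD8 T cell by these counts.

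Naive-type CD8 T cells made up a larger share of CD8 T cells in the aneurysm library than in the room air library. Among cells with 2 or more CD3 UMIs, a CD8 UMI and no Cd79a UMI, they were 15.5% in aneurysm (62 of 400 cells, interval 12.1 to 19.4), 4.97% in room air (17 of 342 cells, 2.92 to 7.84) and 11.1% in control (5 of 45 cells, 3.71 to 24.1). The aneurysm and room air intervals did not overlap, although they did after thinning to equal depth, as given below, and the control interval overlapped both. Without the mixed barcodes the shares were 13.7% in aneurysm (45 of 329), 4.48% in room air (12 of 268) and 12.5% in control (5 of 40). Among all CD3 cells without Cd79a the shares were 7.76% in aneurysm, 2.86% in room air and 4.67% in control. Among all kept barcodes they were 2.18% in aneurysm, 0.920% in room air and 0.643% in control. The order of aneurysm above room air held on each denominator, whereas control lay between the other libraries among T cells and lowest among all barcodes.

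The order of aneurysm above room air held, with larger counts, when Nkg7 was allowed, in a set that includes the naive-type cells. Control now stood highest among CD8 T cells, with an interval that overlapped that of aneurysm. The wider set was then 55.0% of CD8 T cells in aneurysm (220 of 400, interval 50.0 to 59.9), 19.6% in room air (67 of 342, 15.5 to 24.2) and 60.0% in control (27 of 45, 44.3 to 74.3). Without mixed barcodes it was 55.6% in aneurysm, 21.3% in room air and 65.0% in control. A naive gene of the 3 was detected in 80.2% of cells with CD3 and CD8 in aneurysm, 45.1% in room air and 82.0% in control. The opposite order appeared for CD8 T cells with a Gzmk UMI, which were 10.8% in aneurysm (43 of 400), 40.6% in room air (139 of 342) and 4.44% in control (2 of 45). Since shares of 1 library are not independent, a higher share of either set lowers the other. A single Gzmk UMI also counts a cell in the Gzmk set and removes it from the naive-type set. The part of free Gzmk RNA in these shares was not tested. Naive-type CD4 T cells were 6.88% of CD3 cells in aneurysm, 2.02% in room air and 9.35% in control, so the order of aneurysm above room air was found there too. When every barcode was thinned to 1500 UMIs, which left out 130 shallower control barcodes and none elsewhere, 45 aneurysm, 19 room air and 6 control cells met the rule. They were 15.25% of CD8 T cells in aneurysm (11.3 to 19.9), 7.48% in room air (4.56 to 11.4) and 16.2% in control (6.19 to 32.0), so the aneurysm and room air intervals overlapped at this depth. Among CD3 cells the thinned shares were 6.90% in aneurysm (5.08 to 9.13), 4.15% in room air (2.52 to 6.40) and 7.23% in control (2.70 to 15.1).

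**Figure D2:**
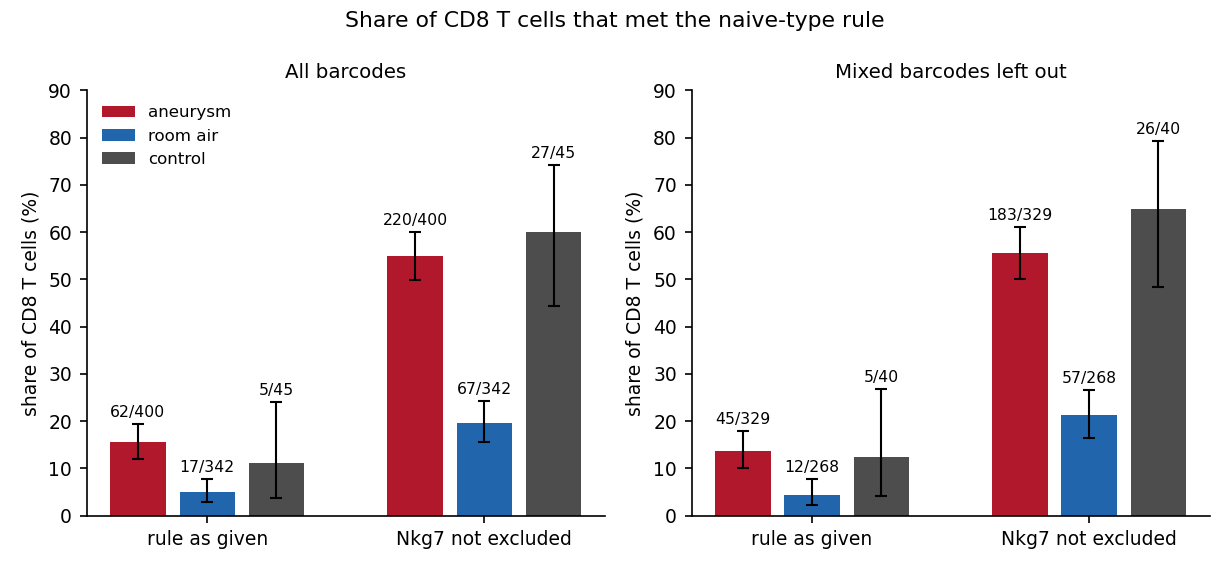
Bars give the percentage of CD8 T cells that met the naive-type rule, as given or with Nkg7 allowed, for all barcodes (left) and with mixed barcodes left out (right), in aneurysm (red), room air (blue) and control (grey). Lines are exact binomial 95% intervals with the counts above them, and room air stands lowest in each set of bars.

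The genes that chose the cells are given beside their level in B cells as a description, since a higher level follows from the rule. Lef1, a transcription factor of naive T cells and their thymic precursors, had 569 CPM (449 to 711) in aneurysm, 752 CPM (477 to 1128) in room air cells and 1033 CPM (472 to 1961) in control cells, against at most 7.23 CPM in B cells of any library. Dapl1, a small protein gene marking resting CD8 T cells, had 532 in aneurysm, 458 in room air and 918 CPM in control, against at most 5.89 CPM in B cells. Tcf7, which encodes TCF1, had 347 in aneurysm, 229 in room air and 115 CPM in control, where it rested on 1 UMI. Cd8b1 had 887 in aneurysm, 1014 in room air and 918 CPM in control. Cd8a was lower, with 370 in aneurysm, 294 in room air and 230 CPM in control. The intervals of the 3 libraries overlapped for each of these genes. With mixed barcodes kept, Cd8b1 had 463 in aneurysm, 529 in room air and 918 CPM in control, and Lef1 had 344 in aneurysm, 334 in room air and 1033 CPM in control.

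Detection varied from cell to cell. Lef1 was found in 35 of 45 aneurysm, 10 of 12 room air and 4 of 5 control cells, Tcf7 in 27 aneurysm, 6 room air and 1 control cells, and Dapl1 in 20 aneurysm, 4 room air and 3 control cells. In B cells Lef1 was found in 3.19% of aneurysm cells, 2.49% of room air cells and 0 of 120 control cells. All 3 genes were seen together in 11 aneurysm, 1 room air and 1 control cells, and 27 of the 62 cells (43.5%) entered on 1 of the 3 genes alone, most often Lef1 (16 cells). Dapl1 was detected in 27 of the 62 cells (43.5%), against 126 of the 204 unmixed cells with Nkg7 (61.8%). Summed over the 7 markers of naive CD8 T cells the level was 3230 in aneurysm, 3401 in room air and 4018 CPM in control. The cells with Nkg7 had 3717 in aneurysm, 3736 in room air and 4943 CPM in control of the same markers.

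Coordinates of these genes, from the GENCODE vM21 annotation of GRCm38, place the CD8 genes side by side, Cd8a at chr6:71373427-71379173 and Cd8b1 at chr6:71322788-71337494, both on the plus strand. Lef1 lies at chr3:131110471-131224356, Dapl1 at chr2:59484653-59505020 and Tcf7 at chr11:52252371-52283014, and Nkg7 at chr7:43437073-43438249. All are protein-coding genes.

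Homing and retention genes, which the rule did not use, were detected in all 3 libraries. Ccr7 was found in 17 of 45 aneurysm, 6 of 12 room air and 3 of 5 control cells. It had 140 in aneurysm, 327 in room air and 344 CPM in control. B cells also use Ccr7, at 76.6 to 121 CPM, so this gene does not set the T cells apart from free RNA. S1pr1, the receptor by which lymphocytes leave tissue, had 111 in aneurysm, 163 in room air and 344 CPM in control. Over the list of 18 naive and homing genes the summed level was 4501 in aneurysm, 4839 in room air and 5395 CPM in control. In unmixed CD8 T cells with Gzmk it was 1961 in aneurysm, 2028 in room air and 3758 CPM in control. Satb1, a chromatin organiser of resting T cells, had 273 in aneurysm, 294 in room air and 344 CPM in control. Actn1, an actin cross-linker high in naive T cells, had 229 in aneurysm, 294 in room air and 0 CPM in control, where the 3-count floor was 344 CPM.

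Klf2, which drives S1pr1 expression, had 517 CPM (403 to 654) in aneurysm, 1144 CPM (797 to 1592) in room air cells and 1837 CPM (1050 to 2983) in control cells. In the cells with Nkg7 it was 380 in aneurysm, 879 in room air and 1504 CPM in control. B cells showed the same order, with 293 in aneurysm, 557 in room air and 1075 CPM in control, and so did macrophages, with 178 in aneurysm, 381 in room air and 744 CPM in control. Klf2 was thus lowest in aneurysm and highest in control in all 4 sets, and its relation to how the samples were handled was not tested.

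T cell receptor and survival genes were detected in all 3 libraries. Cd3d had 983 in aneurysm, 1046 in room air and 804 CPM in control, and Cd3g had 917 in aneurysm, 850 in room air and 918 CPM in control, but both were part of the rule. Lck, the kinase bound to CD8, was not, and had 577 in aneurysm, 458 in room air and 804 CPM in control, against at most 33.4 CPM in B cells. The adaptor Lat had 458 in aneurysm, 392 in room air and 344 CPM in control. Bcl11b, a factor that keeps T cell identity, had 244 in aneurysm, 327 in room air and 344 CPM in control, against at most 2.98 CPM in B cells. Lck and Bcl11b were thus well above the B cell level in each library. Il7r, the receptor for the survival cytokine interleukin 7, had 244 in aneurysm, 589 in room air and 344 CPM in control, against at most 25.1 CPM in B cells. Bcl2, which interleukin 7 sustains, had 259 in aneurysm, 490.5 in room air and 459 CPM in control. Cd44, which marks antigen-experienced cells, was found in 2 aneurysm, 1 room air and 0 control cells. Its level of 14.8 in aneurysm, 32.7 in room air and 0 CPM in control was below the 80.5 to 109 CPM of B cells.

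Genes of cytotoxic effectors were at or near 0, while other genes of the effector and memory list were not. Gzmb had 1 UMI in the 62 cells, Eomes 1 UMI, Tbx21 none and Gzmm none, and Prf1 had 1 UMI, in control. In CD8 T cells with a Gzmk UMI, Gzmb had 697 in aneurysm, 195 in room air and 939 CPM in control. Over the list of 31 effector and memory genes the sum was 3031 in aneurysm, 2060 in room air and 1263 CPM in control. In the CD8 T cells with Gzmk it was 24896 in aneurysm, 26093 in room air and 52074 CPM in control, where there were 2 such cells. The list shares no gene with the exclusions, but Gzmk cells were chosen for an effector gene, so this contrast is a description. Without the barcode rich in Ly6c2, the aneurysm sum was 2451 CPM. The list also holds S100a10, an annexin partner, with 525 in aneurysm, 360 in room air and 574 CPM in control, and the galectin gene Lgals1, with 503 in aneurysm, 392 in room air and 115 CPM in control. B cells had 368 to 1040 CPM of S100a10 and 607 to 809 CPM of Lgals1. Ccl5, an effector chemokine, was found in 16 of 45 aneurysm and 10 of 12 room air cells and in 0 of 5 control cells. B cells gave the same order, at 25.9% of cells in aneurysm, 75.1% in room air and 8.33% in control, so a Ccl5 UMI in these cells is not read as expression.

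Cd69, a sign of tissue retention or recent activation, had 4 UMIs in aneurysm, 1 in room air and 1 in control. The list of tissue residency genes summed to 148 in aneurysm, 229 in room air and 115 CPM in control. The list of checkpoint genes summed to 370 in aneurysm, 360 in room air and 115 CPM in control. Without the barcode rich in Plac8 and Ly6c2 the aneurysm sum was 319 CPM. Pdcd1, which encodes PD-1, had 10 UMIs in 3 aneurysm cells and none elsewhere, and Mki67 had 1 UMI in 1 aneurysm cell. Top2a had 5 UMIs, all in 1 aneurysm cell. The list of 22 cell cycle genes summed to 2927 in aneurysm, 2420 in room air and 2296 CPM in control. Of the 396 aneurysm UMIs, 124 were in 1 cell, without which aneurysm would not stand highest. Tubb5, H2afz and Ccnd2 had 99, 83 and 52 of the 396 UMIs, and at this depth a cell without a UMI of a gene may still express it. Of the 9 markers of gamma-delta T cells 5 had a row in the matrix, and none of these had a UMI in any naive-type cell, mixed barcodes included. Thymocyte markers summed to 177 in aneurysm, 131 in room air and 0 CPM in control, of which Themis, also used by mature T cells, held 16 of the 24 aneurysm UMIs.

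Transcripts of other cell types were not absent from the unmixed cells. C1qa, C1qb, C1qc, Lyz2, Cd74 and H2-Aa set the limit that chose these cells, and the rule removed any Cd79a UMI. Low macrophage and B cell sums, and higher ones with mixed barcodes kept, thus follow in part from the choice and are a description. The 12 macrophage and monocyte markers were all detected in aneurysm, 9 of 12 in room air and 7 of 12 in control. They summed to 2735 in aneurysm, 5526 in room air and 2985 CPM in control. With mixed barcodes kept the sum was 13762 in aneurysm, 23723 in room air and 2985 CPM in control. Of the 10 B cell markers 7 had a row in the matrix. Nearly all their UMIs were Cd74, and they summed to 1619 in aneurysm, 3106 in room air and 459 CPM in control, with 3 markers detected in aneurysm, 4 in room air and 1 in control. Without the barcode rich in Plac8 the aneurysm sum was 1346 CPM. The 6 neutrophil markers summed to 96.1 in aneurysm, 360 in room air and 0 CPM in control. The 10 endothelial and wall markers summed to 761 in aneurysm, 196 in room air and 115 CPM in control, and 74 of the 103 aneurysm UMIs were the Cytl1 of 1 barcode, without which the aneurysm sum was 101 CPM. Ribosomal protein genes took a median 39.9% of UMIs in aneurysm, 35.7% in room air and 40.6% in control among the unmixed cells. The median was 20.4% in mixed aneurysm barcodes and 12.9% in mixed room air barcodes. The share of these transcripts in the ratios below was not tested beyond the B cell and macrophage levels given there.

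**Figure D3:**
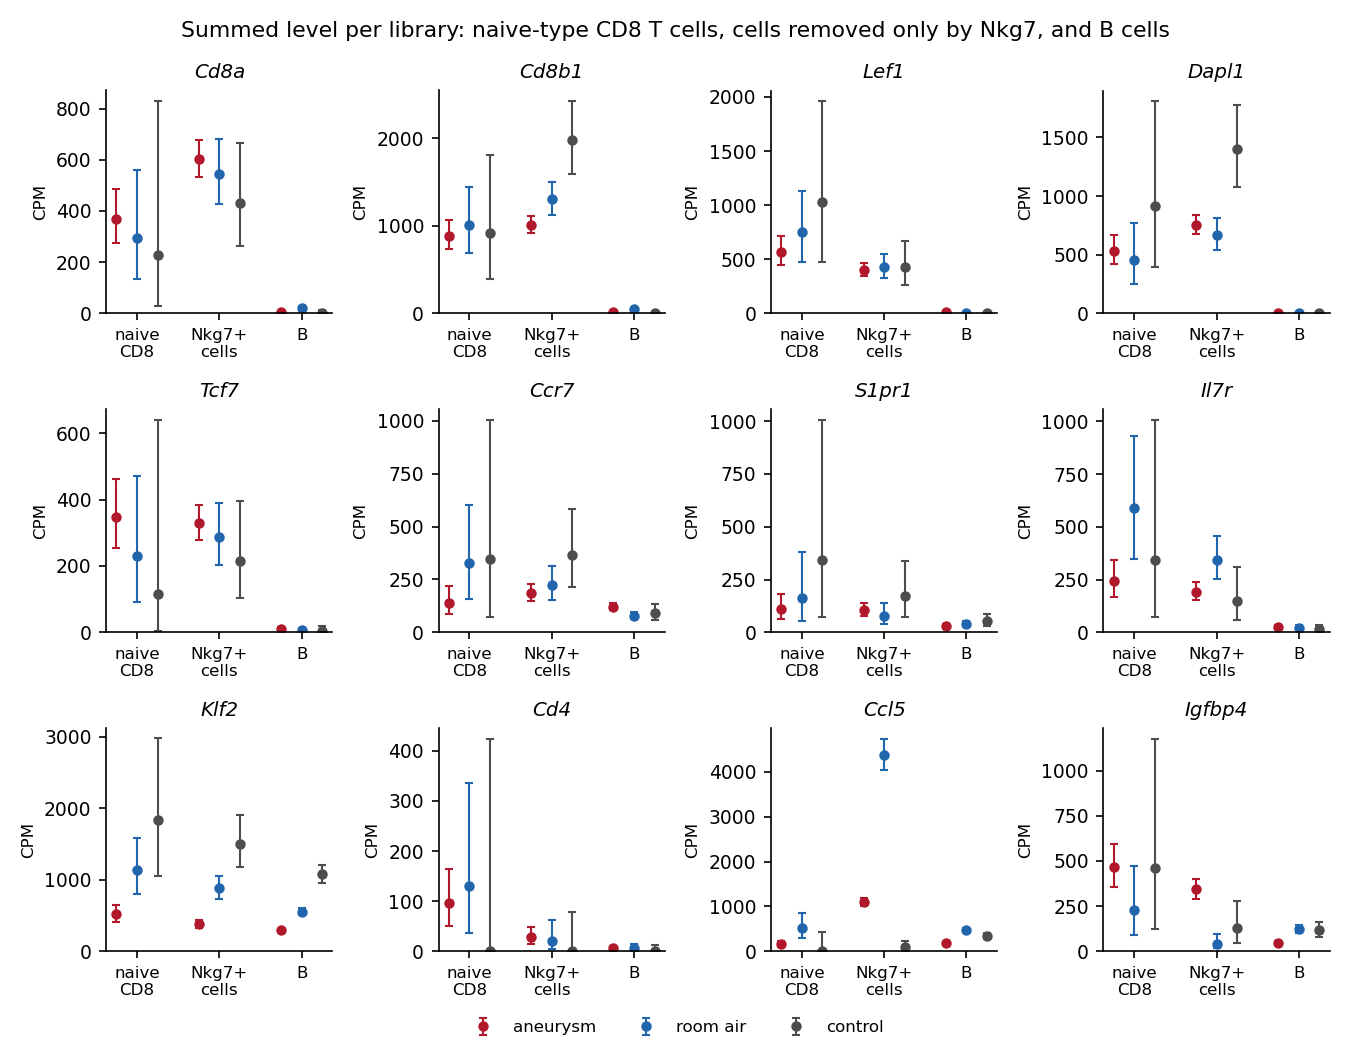
Each panel gives the summed level of 1 gene in CPM with its exact Poisson 95% interval, in unmixed naive-type CD8 T cells (left), unmixed cells removed only by Nkg7 (middle) and B cells (right), for aneurysm (red), room air (blue) and control (grey). The markers Cd8b1, Lef1 and Dapl1, which the rule used to choose the cells, stand near 0 in B cells. Klf2 keeps the order of the libraries in all 3 sets, and Ccl5 is highest in the room air cells with Nkg7.

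Aneurysm was compared with room air to ask how these cells differed between diseased aortas of smoke-exposed mice and aortas of mice on the same diet. Most genes that could be read lay within 1.5-fold. Chaperones, Klf2 and Ccl5 were lower in aneurysm both in these cells and in B cells. Il7r was also lower in these cells, but B cells had too little of it to show a like difference. The lower Il7r held in cells with 1 CD8 UMI, while in those with 2 or more the interval of the ratio included 1. Igfbp4 had a ratio above 1 with an interval that included 1, while B cells ran the other way. A gene was read where its mean level gave 10 or more expected UMIs in the smaller library. In the unmixed cells 350 genes met this, with a median log2 ratio of -0.02. Of these, 26 (7.43%) were 1.5-fold or more higher in aneurysm and 46 (13.1%) 1.5-fold or more lower. With mixed barcodes kept, 71 of 946 genes (7.51%) were higher and 168 (17.8%) lower, and in the wider unmixed set 142 of 1992 (7.13%) were higher and 318 (16%) lower.

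Heat shock chaperones, which refold proteins after stress, were lower in aneurysm than in room air. All 5 of the 16 listed genes that could be read were 1.5-fold or more lower, beside 13.1% of all genes read. Hspa8, the constitutive cytosolic Hsp70, had 1471 CPM in aneurysm, against 2452 CPM in room air, a ratio of 0.60 (0.458 to 0.793). Dnaja1, an Hsp70 cochaperone, had 370 CPM in aneurysm, against 1046 CPM in room air (ratio 0.353, 0.222 to 0.569). Hsp90aa1 had a ratio of 0.461 (0.280 to 0.777) and Hsp90ab1 of 0.527 (0.331 to 0.861). B cells showed the same direction, with Hspa8 at 1523 CPM in aneurysm, against 2920 CPM in room air, and Dnaja1 at 240 CPM in aneurysm, against 634 CPM in room air. In the wider set 9 of 11 chaperones were lower and 1 was higher, Hspa9 at a ratio of 1.55 (0.900 to 2.83).

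Genes of naive T cell upkeep did not move together. Il7r had 244 CPM in aneurysm, against 589 CPM in room air, a ratio of 0.414 (0.227 to 0.782), and in the wider set of 0.528 (0.388 to 0.723). In B cells Il7r was low, at 25.1 CPM in aneurysm and 21.6 CPM in room air, so B cells could not show a like difference. The ratio was lower in cells with less CD8 evidence, a difference that was not tested. In cells with exactly 1 CD8 UMI, where other T cells cannot be told apart by CD8 alone, Il7r had 82.2 CPM in aneurysm, against 659 CPM in room air (ratio 0.125, 0.0293 to 0.411). In cells with 2 or more CD8 UMIs it had 335 CPM in aneurysm, against 484 CPM in room air (ratio 0.691, 0.282 to 2.04), an interval that includes 1. Cells of the wider set with 2 or more CD8 UMIs gave a ratio of 0.595 (0.420 to 0.853). Klf2 had a ratio of 0.452 (0.297 to 0.699), and in B cells it had 293 CPM in aneurysm, against 557 CPM in room air. Npm1, a nucleolar protein of ribosome assembly, had 1271 CPM in aneurysm, against 817 CPM in room air (ratio 1.56, 1.02 to 2.47), and in the wider set 1.52 (1.28 to 1.80), while B cells had 701 CPM in aneurysm, against 550 CPM in room air. Of the 18 naive and homing genes, 5 could be read, 2 being 1.5-fold or more higher and 2 lower, beside 7.43% higher and 13.1% lower among all genes read, with a median log2 ratio of 0.23.

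Igfbp4 is an insulin-like growth factor binding protein gene that marks naive T cells in the mouse. It stood higher in aneurysm than in room air, but the interval of the ratio included 1. It had 466 CPM (358 to 596) in aneurysm, against 229 CPM (92.0 to 472) in room air cells and 459 CPM (125 to 1176) in control cells, and the ratio of 2.03 had an interval of 0.932 to 5.27. In the unmixed cells with Nkg7 it had 343 CPM in aneurysm, against 42.9 CPM in room air cells and 129 CPM in control cells. Over the wider set Igfbp4 was found in 77 aneurysm cells and 10 room air cells, with 371 CPM in aneurysm, against 76.2 CPM in room air, a ratio of 4.87 (2.79 to 9.29). B cells ran the other way, with 47.2 CPM in aneurysm, against 124 CPM in the room air library and 115 CPM in the control library. In the wider room air set the level lay below that of the room air B cells, so there the UMIs are not read as expression.

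Few quiescence genes could be read. Of 17 listed, 5 met the limit, 2 were 1.5-fold or more lower in aneurysm and none higher, beside 13.1% lower and 7.43% higher among all genes read, with a median log2 ratio of -0.41. The lower ones were Klf2, the only one whose interval left out 1 and which was also lower in B cells and macrophages, and Slfn2, which holds T cells in quiescence, at 318 CPM in aneurysm, against 523 CPM in room air (ratio 0.608, 0.335 to 1.16). Btg1, an antiproliferative gene of resting lymphocytes, had 1279 CPM in aneurysm, against 1700 CPM in room air (ratio 0.752, 0.549 to 1.05), and 0.701 (0.605 to 0.814) in the wider set. Foxp1, Tsc22d3 and Ets1 lay within 1.5-fold or could not be read in the unmixed cells. Of 21 cytokine receptor and survival genes, 2 could be read and both were 1.5-fold or more lower, beside 13.1% of all genes read. These were Il7r, with the limit given above, and Bcl2 at 0.527 (0.281 to 1.04). In the wider set 3 of 9 were lower, beside 16% of all genes read there.

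Signalling, antigen presentation and adhesion genes that could be read lay within 1.5-fold in the unmixed cells. None of the 4 receptor signalling genes read was past 1.5-fold, with Lck at 1.26 (0.708 to 2.41) and Lat at 1.17 (0.623 to 2.38). None of the 6 MHC class I genes read was past 1.5-fold, with H2-K1 at 1471 CPM in aneurysm, against 1439 CPM in room air, and B2m at 5004 CPM in aneurysm, against 5820 CPM in room air. None of the 7 adhesion and migration genes was past it, with Rac2, a GTPase of lymphocyte movement, at 1367 CPM in aneurysm, against 1373 CPM in room air. The intervals were wide for genes of this level, and those of Lck and Lat reached well past 1.5-fold. A difference past 1.5-fold could therefore be missed in such genes. Of the wider set's genes, 1 of 17 in signalling, 1 of 15 in MHC class I and 2 of 14 in adhesion were 1.5-fold or more lower and none higher, beside 16% lower among all genes read. Of 25 oxidative phosphorylation genes 12 were read, 2 higher and none lower, beside 7.43% higher and 13.1% lower among all genes read, with a median log2 ratio of 0.07. The higher ones, Ndufa4 at 1.51 (0.775 to 3.30) and Atp5b at 1.77 (0.940 to 3.67), had intervals that include 1.

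Among interferon-induced genes, the barcode rich in Plac8 and Ly6c2 held 43 Ly6a UMIs, beside 71 in the other unmixed aneurysm cells. Of Ifi27l2a it held 18 UMIs, beside 139 in the others. Ly6a, a surface protein also called Sca-1 that interferon and activation raise in mouse lymphocytes, had 843 CPM in aneurysm, against 229 CPM in room air, a ratio of 3.68 (1.73 to 9.36). Without the barcode rich in Plac8 and Ly6c2 the Ly6a ratio was 2.41 (1.11 to 6.22). In the wider set it was 2.04 (1.40 to 3.08). That set holds the same naive-type cells and that barcode, so its ratio is not independent of the first. B cells had 567 CPM of Ly6a in aneurysm and 463 CPM in room air. Ifi27l2a had a ratio of 1.97 (1.21 to 3.41), of 1.84 (1.12 to 3.19) without that barcode, and of 0.970 (0.799 to 1.18) in the wider set. Of 34 listed interferon genes 3 could be read and 2 were 1.5-fold or more higher, beside 7.43% of all genes read. In the wider set 1 of 14 was higher and 5 were lower, beside 7.13% higher and 16% lower.

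Ly6c2, a surface protein of monocytes and of some CD8 T cells, had 599 CPM in aneurysm, against 98.1 CPM in room air, a ratio of 6.10 (2.02 to 30.2). Without the same barcode Ly6c2 was 1.90 (0.578 to 9.88) and Plac8 had 0.523 (0.168 to 1.92), against 3.71 (1.53 to 11.7) with the barcode included. In the wider set Ly6c2 was 0.947 (0.741 to 1.22). The other genes named as higher were Rpl4, Cfl1, Pabpc1, Npm1, Ddx5 and H3f3a, with ratios between 1.5 and 1.89. In the wider set Rpl4 was 1.20 (1.09 to 1.33), Cfl1 0.990, Pabpc1 1.04 and H3f3a 0.873, so of these 6 only Npm1 kept a ratio above 1.5 there.

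Many of the genes named as lower belong to myeloid and antigen-presenting cells. C1qa had 266 CPM in aneurysm, against 719 CPM in room air, and C1qb 222 CPM in aneurysm, against 687 CPM in room air. Spp1 had 170 CPM in aneurysm, against 523 CPM in room air, and Lyz2 had 1146 CPM in aneurysm, against 2093 CPM in room air. H2-Ab1 and H2-Aa of MHC class II had ratios of 0.455 and 0.470. Cd74, their invariant chain, had 0.564 (0.438 to 0.732), or 0.468 (0.359 to 0.613) without the barcode rich in Plac8 and Ly6c2. C1qa, C1qb, Lyz2, H2-Aa and Cd74 are among the 6 myeloid genes whose limit chose the unmixed cells. Their ratios were therefore bounded by that choice and are given as a description. Every unmixed room air cell had 0.570% or more of its UMIs from the 6 myeloid genes. All 6 macrophage markers read, some of them genes of that limit, were 1.5-fold or more lower in aneurysm, beside 13.1% of all genes read. Of the 6, 4 had an interval that left out 1. In macrophages Lyz2 had 12735 CPM in aneurysm and 11073 CPM in room air. Ccl5 had 155 CPM in aneurysm, against 523 CPM in room air (ratio 0.297, 0.148 to 0.608), beside B cell levels of 189 CPM in aneurysm and 475 CPM in room air.

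Ccl5 was not at the B cell level everywhere. In the unmixed cells with Nkg7 it had 1098 CPM in aneurysm, against 4372 CPM in room air cells and 86.0 CPM in control cells, while B cells had 189 in aneurysm, 475 in room air and 339 CPM in control. It was found in 47 of 138 such aneurysm cells (34.1%), 36 of 45 room air cells (80.0%) and 4 of 21 control cells (19.0%). Over the wider set the ratio of aneurysm to room air was 0.240 (0.213 to 0.270). In the naive-type cells themselves, which lack Nkg7, Ccl5 stayed at the level of the B cells.

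**Figure D4:**
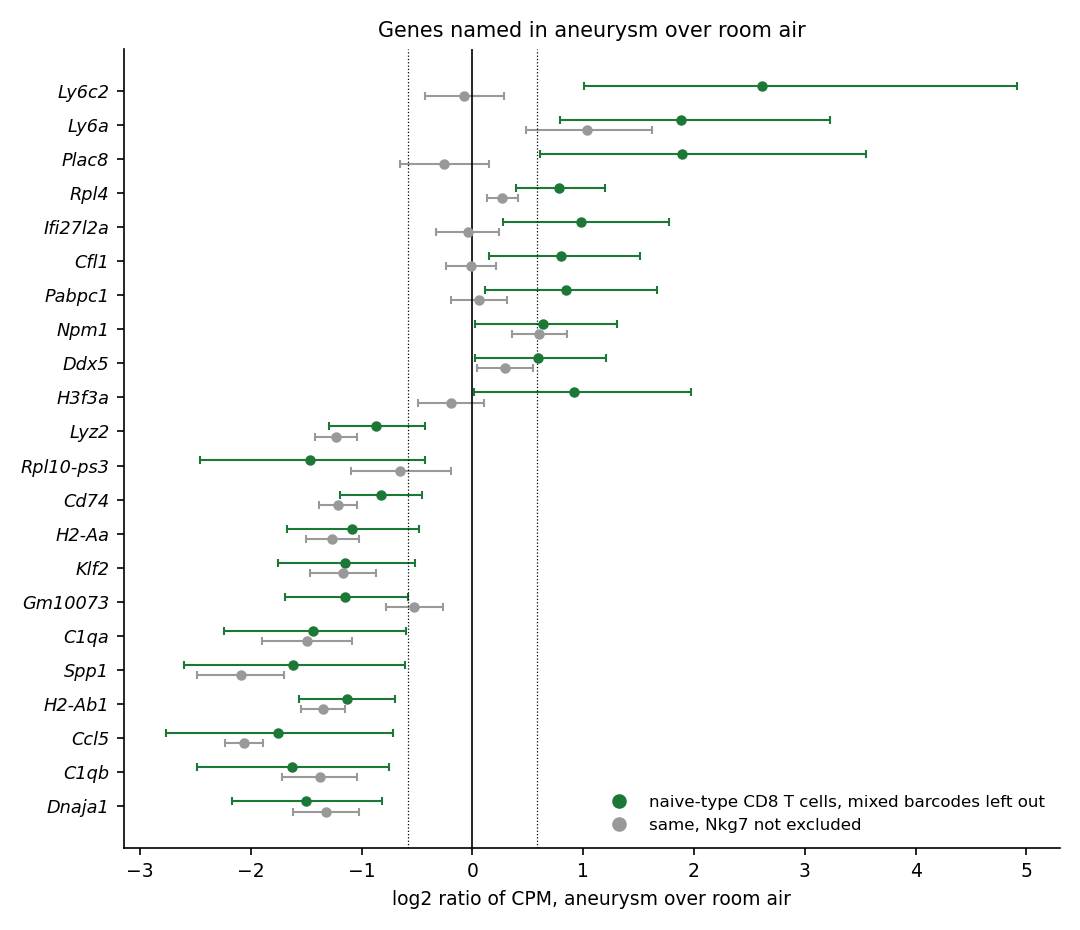
Log2 ratios of aneurysm over room air with exact 95% intervals for the 22 genes named in the unmixed naive-type CD8 T cells (green), 10 higher and 12 lower, and the same genes when Nkg7 was allowed (grey), with dotted lines at 1.5-fold. Ly6a and Npm1 keep a ratio above 1.5 in the wider set, which holds the same cells. Ly6c2, Plac8, Ifi27l2a, Cfl1 and H3f3a lie at or below 1 there. The 12 lower genes lie below 1 in both sets, and those of the mixed-barcode limit are shown as a description. Both sets include the barcode rich in Plac8 and Ly6c2.

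With the mixed barcodes kept, the lowest ratios of aneurysm to room air were set by few cells. Cd209f had 3 UMIs in aneurysm, against 37 UMIs in room air that were all in 1 cell. Retnla had 26 UMIs in aneurysm, against 107 UMIs in room air with 99 in 1 cell. Gpnmb, Chil3, Slpi, Jchain, Pla2g7, Fabp5, Rgs1, Dnajb1, B930036N10Rik and Plin2 made up the rest of the 12 lowest. The higher side held Ly6c2, Actg1, Rpl4, Cox5a, Rps2, Rpl28, Vcp, Ly6a, Cfl1, Rpl5, Ccl12 and Tbca. Of these, Ly6c2, Ly6a, Rpl4 and Cfl1 were named in the unmixed cells too. Ccl12, Cox5a, Vcp and Ly6c2 turned direction under other settings, and so did Cd209f, as given at the end.

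Room air was compared with control to ask how the cells differed between Apoe-/- mice on a Western diet and chow-fed C57BL/6 mice. With 5 control cells and 8711 UMIs, a gene needed a mean of 1148 CPM to be read. In the unmixed cells 123 genes were read, of which 10 (8.13%) were 1.5-fold or more higher in room air and 13 (10.6%) lower, with a median log2 ratio of -0.18. With mixed barcodes kept, 20 of 128 (15.6%) were higher and 70 (54.7%) lower, with a median of -0.63. Scaled by the median of ratios, the split with mixed barcodes kept was 29 higher and 8 lower. In the wider unmixed set 103 of 624 genes (16.5%) were higher and 56 (8.97%) lower, with a median of -0.01.

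Genes of resting T cells showed no common direction in room air. Of 17 quiescence genes 2 were read in the unmixed cells, Btg1 higher and Klf2 lower, beside 8.13% higher and 10.6% lower among all genes read. Among 8 naive and homing genes read in the wider set 2 were higher and 2 lower, beside 16.5% higher and 8.97% lower. Klf2 had 1144 CPM in room air, against 1837 CPM in control (ratio 0.623, 0.336 to 1.21), and 0.595 (0.455 to 0.783) in the wider set, beside B cell levels of 557 in room air and 1075 CPM in control. Tmsb10, an actin-binding thymosin, had 7684 CPM in room air, against 14235 CPM in control, a ratio of 0.540 (0.432 to 0.677), and of 0.560 (0.510 to 0.615) in the wider set. In B cells Tmsb10 had 2601 CPM in room air, against 3885 CPM in control. Btg1 had 1700 CPM in room air, against 689 CPM in control (ratio 2.47, 1.06 to 7.03), and in the wider set 1.46 (1.09 to 1.98). Bcl2, read only in the wider set, had 235 CPM in room air, against 507 CPM in control (ratio 0.463, 0.278 to 0.779), and Il7r there had a ratio of 2.14 (1.09 to 4.66).

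Chaperones and antigen presentation genes of other cells stood higher in room air. Hspa8 had 2452 CPM in room air, against 918 CPM in control (ratio 2.67, 1.29 to 6.41), beside B cell levels of 2920 in room air and 1113 CPM in control. Of 16 chaperones 8 were read in the wider set, 6 were 1.5-fold or more higher and none lower, beside 16.5% of all genes read. Cd74 had 2845 CPM in room air, against 459 CPM in control (ratio 6.2, 2.33 to 23.2), and Lyz2 had 2093 CPM in room air, against 918 CPM in control. Both are genes of the mixed-barcode limit, so these values are a description. Actb had 4807 CPM in room air, against 2640 CPM in control (ratio 1.82, 1.17 to 2.96), beside B cell levels of 9064 in room air and 4590 CPM in control. Shisa5 was 0.570 (0.349 to 0.95) in the unmixed cells and 1.01 in the wider set. Rplp0 and Rps20 were higher at 1.62 and 1.82 but 0.965 and 0.846 in the wider set, and Rpl22 and Rpl31 were lower in both.

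In the wider set, Ccl5 had 3682 CPM in room air, against 72.4 CPM in control, a ratio of 50.9 (19.8 to 187), whereas no Ccl5 UMI was seen in the 5 control naive-type cells and none of these is read as different. Apoe had 5.86 CPM in room air, against 634 CPM in control, in 17 of the 26 control cells, at a lower level than in control B cells (4342 CPM). Txk, a Tec family kinase of T cells, had 147 CPM in room air, against 380 CPM in control (ratio 0.386, 0.207 to 0.724), with at most 0.982 CPM in B cells. Aneurysm and control were not set against each other as a separate comparison, and both comparisons above share the room air library.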

How the data were processed

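The deposited files were gene-by-barcode matrices of UMI counts, 1 for each of 3 libraries, deposited by the authors. The submitters' processing notes name Cell Ranger, STAR and the mm10 build, and versions are not given in the sources used here. Libraries were 10x Genomics 3′ libraries of pooled mice, per the labels' protocols. Barcodes with 200 or more of the 27998 genes and at most 10% mitochondrial UMIs were kept. Reads of T cell receptor and immunoglobulin segments had no row in the gene table.

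From these counts, UMIs were summed over the cells of a library and divided by the cells' total (CPM). A gene was read where the mean CPM of the 2 libraries gave 10 expected UMIs in the smaller one, and counted past 1.5-fold. A library at 0 was set to 3 counts for a ratio. Intervals are 95% (Clopper-Pearson for shares, exact Poisson for levels, exact conditional binomial for ratios) and cover counting error only, since 1 library per group allows no test. Named genes were at most 12 per direction, past 1.5-fold with an interval that leaves out 1 and lies farthest from it, without rule genes, mitochondrial, Xist, Tsix or Y-linked genes, plus the 3 highest of each gene list. Pla2g7, Txk and others outside the lists came from that rule, in the set named beside them. The members, gene lists, the mixed-barcode limit and the wider set were chosen with earlier results of these data known. The CD8 T cells with Gzmk had no Cd79a, Klra1, Klra6 or Klra7 UMI. The summing script was checked on simulated data. Software was Python 3.11.15, numpy 2.4.6, scipy 1.17.1, pandas 2.3.3, matplotlib 3.10.9 and scanpy 1.11.5 (Scrublet). Gene coordinates are from GENCODE vM21.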

Additional observations from a re-analysis of the deposited data

How the results depend on the processing

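No paired analysis was possible because each group had 1 library. Shares are of kept barcodes, of CD3 cells and of CD8 T cells, in aneurysm, room air and control. With at least 3 CD3 and 2 CD8 UMIs, the aneurysm shares were 1.16%, 4.47% and 10.0%, and the room air shares 0.325%, 1.21% and 2.46%. With Cd4 UMIs left out, the aneurysm shares were 1.59%, 5.63% and 11.25%. Thinned to 1500 UMIs, the aneurysm share of kept barcodes was 1.59%, and without mixed barcodes it was 1.59%. With Nkg7 allowed, aneurysm shares were 7.75%, 27.5% and 55.0%, room air shares 3.63%, 11.3% and 19.6%, and control shares 3.47%, 25.2% and 60.0%. With Nkg7 allowed and mixed barcodes out, they were 6.45%, 30.1% and 55.6% in aneurysm, 3.08%, 13.5% and 21.3% in room air, and 3.34%, 28.0% and 65.0% in control. With 3 or more myeloid UMIs left out, 0.0352%, 0.125% and 0.25% were left in aneurysm, 0% in room air, and 0.129%, 0.935% and 2.22% in control, so gene comparisons were not run. Other shares stayed within their intervals.

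With mixed barcodes kept, genes past 1.5-fold, aneurysm over room air, were 71 higher and 168 lower. The higher count was 27 after thinning, 191 with Nkg7 allowed, 26 without mixed barcodes, 142 with both, 222 at 5 expected UMIs, 21 at 20 UMIs and 178 with free RNA subtracted. The lower count was 70 with at least 3 CD3 and 2 CD8 UMIs, 108 without Tcf7 in the rule, 48 thinned, 462 with Nkg7 allowed, 46 without mixed barcodes, 318 with both, 443 at 5 UMIs, 66 at 20 UMIs, 270 with free RNA subtracted and 67 without each gene's top cell. Room air over control gave 20 higher and 70 lower. The higher count was 9 with at least 3 CD3 and 2 CD8 UMIs, 9 thinned, 194 with Nkg7 allowed, 10 without mixed barcodes, 103 with both, 43 at 5 UMIs, 9 at 20 UMIs and 10 with free RNA subtracted. The lower count was 44 with at least 3 CD3 and 2 CD8 UMIs, 19 thinned, 13 without mixed barcodes, 18 without ribosomal protein and mitochondrial genes in CPM, 8 by the median of ratios and 32 with each cell weighted the same. The filters on expected UMIs, thinning and smaller sets alter how many genes are read by construction, and other causes were not tested.

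In aneurysm over room air, 7 log2 ratios turned: Ly6c2 to -0.61 when thinned, Ccl12 to -1.60 with Nkg7 allowed, -4.15 without mixed barcodes and -1.01 with both, Cd209f to 0.79 with both, and Cox5a to -2.05 and Vcp to -1.18 with free RNA subtracted. These 7 are among 699 ratios, over both comparisons, of genes named with mixed barcodes kept, set against all 84 cells. Of the 699, 515 kept their value within the interval and 177 moved. Genes named only in the unmixed cells were not run under these settings. Settings with Nkg7 allowed, mixed barcodes or single cells left out were added after the data were seen. With 5 control cells, 3 counts are 344 CPM, which limits every statement on control.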
